A study of Mus musculus with 6 samples.

Results

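The genes described here restrain or redirect signals from G protein-coupled receptors in cultured mouse hepatic stellate cells. They are 8 genes of regulators of G protein signalling (Rgs2, Rgs3, Rgs4, Rgs5, Rgs10, Rgs12, Rgs16 and Rgs19) and the small GTPase genes Gem and Rasd1. They were taken by symbol from a table of exon counts for 24940 genes, and all 10 are in it. The cells are the pericytes of liver sinusoids, which store vitamin A, isolated from wild-type female C57BL/6JBomTac mice. After 2 days in culture they received obeticholic acid (OCA, 10 µM), a bile acid derivative that activates the nuclear receptor FXR, or an equal volume of its solvent DMSO at 1:1000. Vasoactive intestinal peptide (VIP, 500 nM), which acts through receptors coupled to Gs, followed after 3 h and stayed for 3 h more. The groups are DMSO+VIP and OCA+VIP, with 3 libraries each. VIP was in every sample, so each difference is between OCA and vehicle in VIP-exposed cells, with no measure of what VIP alone did. The ages of the mice are not given in the sources used here. Nor is it given whether replicate libraries stem from different animals or dishes, so a p-value here reflects only how these samples scatter, and that scatter may be technical.

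An agonist-bound receptor loads the alpha subunit of its G protein with GTP, and the signal lasts until that GTP is hydrolysed. RGS proteins speed this hydrolysis on alpha subunits of the Gi and Gq classes and thereby shorten the signal. Gem belongs to the RGK small GTPases, which lower the current through voltage-gated calcium channels. Rasd1, also called Dexras1, is a Ras-like protein induced by glucocorticoids that can act on Gi without a receptor. Several of these genes respond to hormones within hours, and Rgs5 is widely used as a marker of pericytes.

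With OCA before VIP, Gem RNA fell 1.94-fold, and Rgs2 RNA fell 2.91-fold from a much lower level. The call for Rgs2 depended on single libraries. The other 6 genes that could be tested did not pass the threshold, and Rgs4 and Rasd1 had too few counts for the test. Of the 8 tested genes, 2 were lower and 0 were higher, or 25.0% called against 11.8% of all 11286 tested genes (adjusted p under 0.05 over all tested genes, by the quasi-likelihood test of edgeR). Over all tested genes 6.04% were called lower and 5.72% higher. At an unadjusted p under 0.05, 3 of the 8 were lower and 0 higher. This cutoff is looser than the adjusted one, so more than 11.8% of all tested genes met it. The count of 3 is therefore not read as an excess over all tested genes. At the adjusted threshold, DESeq2 and limma-voom also called 2 of the 8 lower and 0 higher. The median log2 fold change of the 8 genes was 0.09, against 0.0011 over all tested genes. Levels below are in CPM, counts scaled to the library's column total, with SD over 3 libraries, and levels of different genes are compared only as CPM per kb of exon.

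The libraries held 2.84e+06 to 4.57e+06 counts with DMSO+VIP and 4.53e+06 to 9.95e+06 with OCA+VIP. Counts above 0 and up to 30 piled up at multiples of 3 and of 6. Between 82.9% and 87.5% of them lay within 0.5 of a multiple of 3, and 65.4% for OCA+VIP library 2 alone, where an even spread gives 50%. For multiples of 6 the shares were 55.6% to 58.2%, and 37.5% for that library, against 25% for an even spread. The floor was therefore set at 3 steps of the larger size over a group, 18 counts, which equals 1.61 CPM for the DMSO+VIP group and 0.887 CPM for the OCA+VIP group. Of 16 stellate cell markers 15 were tested, and the 16 summed to 891 to 1149 CPM and 1069 to 1218 CPM in the 2 groups. These sums hold opposite moves, since Colec11, Dcn, Ecm1, Ngfr and Pdgfra rose and Hgf and Des fell (5 higher and 2 lower by edgeR). Reln was at 270 and 241 CPM, and Lrat, the enzyme that stores retinol, at only 3.91 and 8.16 CPM, and neither was called. Hepatocyte markers summed to 179 to 201 CPM in the DMSO+VIP libraries and to 313 to 493 CPM in the OCA+VIP libraries, with Cps1 and Tat at 0 in every library. These sums also hold opposite moves, since 9 of the 13 tested markers were higher and 1 was lower. Alb rose from 39.5 to 146 CPM (edgeR adjusted p = 9.2e-07), while Ass1 fell from 110 to 64.4 CPM (edgeR adjusted p = 0.0018). Macrophage markers summed to 15.3 to 48.1 and 33.9 to 46.4 CPM, with 5 of 14 at 0, among them the 3 C1q chains. Cd68 alone had means of 20.5 and 30.6 CPM. Lymphocyte markers summed to 0 to 1.31 and 5.88 to 10.9 CPM, with 11 of 14 at 0. Cholangiocyte markers summed to 6.16 to 14.9 and 17.3 to 21.0 CPM. Sinusoidal endothelial markers summed to 495 to 556 and 433 to 462 CPM, with Lyve1 at a count of 0. Most of it came from Eng at 495 and 422 CPM, which was not called (edgeR adjusted p = 0.20). Of the 5 tested, 0 were called higher and 1 lower, Egfl7, from 25.5 to 10.8 CPM (edgeR adjusted p = 0.012). Pecam1 (1.14 and 4.23 CPM), Stab1 and Tek had higher means with OCA+VIP and were not called. Markers of smooth muscle and other pericytes summed to 327 to 352 and 329 to 404 CPM, mostly Smtn, which rose from 142 to 231 CPM (edgeR adjusted p = 0.00070), and Des, which fell from 145 to 103 CPM (edgeR adjusted p = 0.013), with Myh11 at 1.41 and 1.14 CPM. The hepatocyte, lymphocyte, cholangiocyte and endothelial sums thus separated the groups as Gem and Rgs2 did, and their part in those results was not tested. In such bulk samples, fewer cells of a type and less RNA per cell cannot be told apart.

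**Figure D1:**
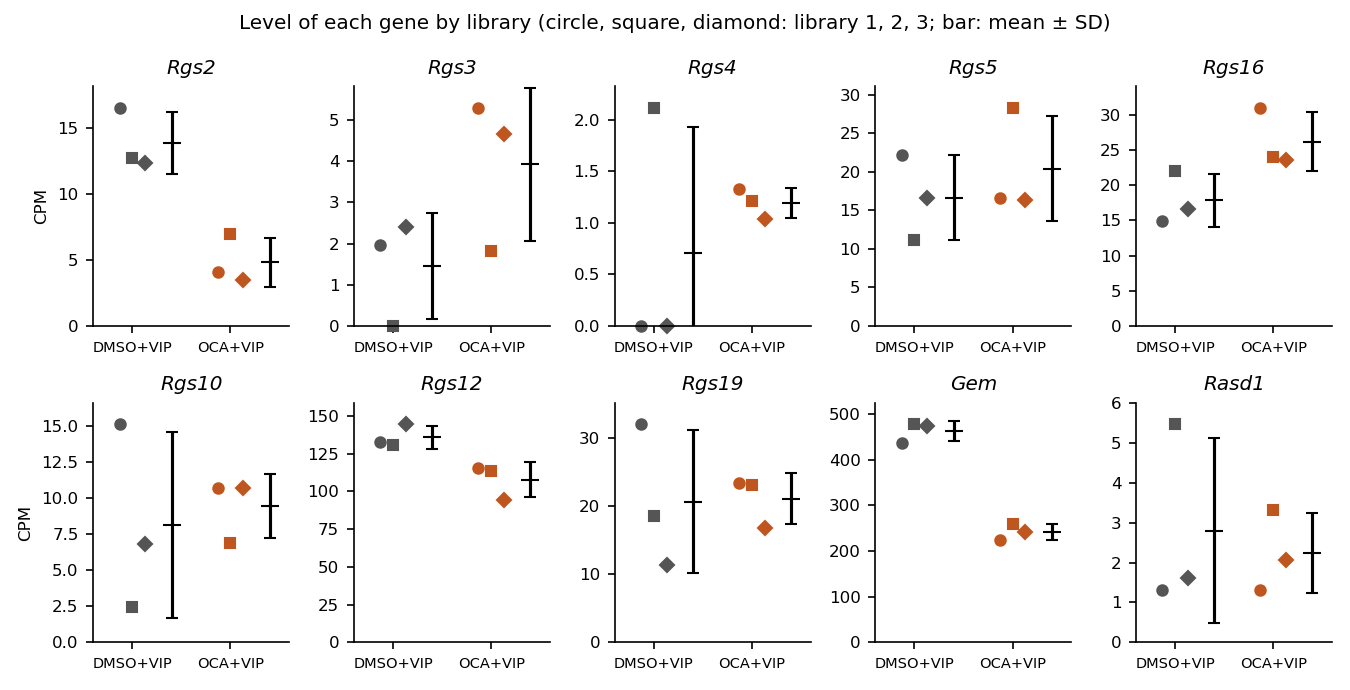
CPM of each of the 10 genes in the 6 libraries, each panel with its own axis from 0; symbols mark libraries 1, 2 and 3 of a group, and the bar is the mean with SD (n = 3). The groups of Gem, Rgs2, Rgs12 and Rgs16 do not overlap, while those of the other 6 genes do.

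In CPM the 2 groups did not overlap for 4 of the 8 tested genes (Gem, Rgs2 and Rgs12 lower, Rgs16 higher), where 30.6% of all tested genes showed no overlap.

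The RGS genes of the R4 family encode small proteins that are little more than an RGS domain, and 5 of the 10 genes belong to it (Rgs2, Rgs3, Rgs4, Rgs5 and Rgs16). All but Rgs3 lie on chromosome 1 (mm10). The promoters of Rgs2, the RGS gene that passed the test, and of Rgs16, the R4 gene whose OCA+VIP values all lay above those with vehicle though it did not pass the test, are shown as the contrasting pair of this family. Each is the 250 bases before the annotated start, 5′ to 3′ on the gene's strand, from RefSeq on GRCm38.p6. Rgs2 is at chr1:144004150-144004399 (minus strand) and Rgs16 at chr1:153740103-153740352 (plus strand), and capitals mark TGACG or its reverse complement CGTCA, the core of the cAMP response element.
Rgs2: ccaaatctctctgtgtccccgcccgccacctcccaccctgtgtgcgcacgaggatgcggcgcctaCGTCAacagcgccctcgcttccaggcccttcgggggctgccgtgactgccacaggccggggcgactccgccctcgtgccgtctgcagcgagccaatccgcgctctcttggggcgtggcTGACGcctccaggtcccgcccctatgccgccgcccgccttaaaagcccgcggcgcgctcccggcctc
Rgs16: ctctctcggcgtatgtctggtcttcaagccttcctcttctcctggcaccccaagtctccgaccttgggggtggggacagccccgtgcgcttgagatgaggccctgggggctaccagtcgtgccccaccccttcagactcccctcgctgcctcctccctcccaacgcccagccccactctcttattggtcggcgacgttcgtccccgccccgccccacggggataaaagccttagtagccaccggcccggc
The Rgs2 window holds this core at 185 and 67 bases before the start, and the Rgs16 window has no match. RefSeq windows were found for 8 of the 10 genes, and among the windows at the start of the listed transcript, 2 of 8 hold the core (Rgs2 and Rgs4). With other annotated starts included, 3 of 12 windows hold it, the third at an internal start of Rgs12. Of 32851 mouse promoter windows of the same length, 17.8% hold it. No window of these genes holds the complete element TGACGTCA, which is in 1.55% of all windows and contains the core on both strands. The FXR inverted repeat AGGTCANTGACCT was in 0 windows of these genes and in 0.0061% of all. The AP-1 site TGACTCA was in 1 window, that of an internal start of Rgs12, and in 4.46% of all. Both strands were searched, and these matches describe letters only.

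Rgs2 (chromosome 1, 143999338 to 144004149) encodes an R4 protein that acts by preference on Gq. It had 16.5, 12.7 and 12.3 CPM in DMSO+VIP libraries 1 to 3 and 4.08, 6.94 and 3.45 CPM in OCA+VIP libraries 1 to 3. Every OCA+VIP library was below every DMSO+VIP library. The means were 13.8 ± 2.32 and 4.82 ± 1.86 CPM (SD, n = 3). On the log2 scale the fitted difference was -1.54, with an SE of 0.47, a 95% interval from -2.52 to -0.56 and an edgeR adjusted p of 0.036. These levels rest on 157.5 and 107.5 counts per group, and the call was lost without any 1 of 5 libraries. Without DMSO+VIP library 1, 2 or 3 the edgeR adjusted p was 0.14, 0.052 and 0.061, and without OCA+VIP library 1 or 3 it was 0.094 and 0.13, with log2 fold changes from -1.36 to -1.62. Without OCA+VIP library 2, the OCA library of highest Rgs2, it was 0.026 with a log2 fold change of -1.88.

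Rgs16 (chromosome 1, 153740353 to 153745468), which acts on Gi and Gq alpha subunits, was at 14.9, 22.0 and 16.6 CPM with DMSO+VIP. With OCA+VIP it was at 31.0, 24.0 and 23.5 CPM. The groups do not overlap, though DMSO+VIP library 2 came within a few CPM of the lower OCA+VIP libraries. The log2 fold change of 0.55 (SE 0.28, 95% interval -0.04 to 1.13) did not pass the test (edgeR adjusted p = 0.23), so the data allow no difference as well as a 2.19-fold rise. A predicted antisense gene, Gm28513, shares 10.1% of the exon bases of Rgs16, and whether counting used strand is not given in the sources used here.

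The ratio of Rgs16 to Rgs2 per kb was formed within each library after their values were seen, which removes library scaling. It was 1.16, 2.24 and 1.74 with DMSO+VIP and 9.79, 4.46 and 8.80 with OCA+VIP. The pair was chosen because its members separate the groups in opposite directions, which fixes the direction of the ratio, so it is given as a description without a test.

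Rgs5 (chromosome 1, 169655501 to 169695813), the pericyte marker, was at 22.2, 11.1 and 16.6 CPM with DMSO+VIP. With OCA+VIP it was at 16.7, 28.3 and 16.3 CPM. The groups overlap, and OCA+VIP library 2 alone lies above all DMSO+VIP libraries. The log2 fold change was 0.26 (95% interval -0.40 to 0.92, edgeR adjusted p = 0.67), and -0.0077 without OCA+VIP library 2. Changes beyond about 1.90-fold upward or to below 0.756 of the vehicle level lie outside the interval.

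Rgs4 is the neighbour of Rgs5, 45.7 kb away on the opposite strand with no gene of the table between them. It had counts of 0, 6 and 0 with DMSO+VIP and of 6, 12 and 6 with OCA+VIP. The DMSO+VIP sum of 6 counts is under the floor and the OCA+VIP sum of 24 is just above it. No difference was detectable at this depth. Rgs5 stood at 4.07 and 4.99 CPM per kb in the 2 groups and Rgs4 at 0.240 and 0.405, so these adjacent genes, both known from vascular pericytes and smooth muscle, were at very unequal levels.

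Rgs3 (chromosome 4, 62619672 to 62703019) encodes an R4 protein with long and short isoforms. It had 9, 0 and 9 counts with DMSO+VIP and 24, 18 and 27 with OCA+VIP, or 1.46 ± 1.28 and 3.92 ± 1.85 CPM (SD, n = 3). OCA+VIP library 2, at 1.81 CPM, lies within the DMSO+VIP range. The test did not call it, with an edgeR adjusted p of 0.42 and a log2 fold change of 1.34 whose 95% interval ran from -0.70 to 3.39. The DMSO+VIP sum of 18 counts equals the floor. The listed transcript covers 36.0% of the exon bases that GENCODE gives this gene, so reads in its other exons are not in these values.

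Rgs12 (chromosome 5, 34949448 to 35033593) encodes a large scaffold of the R12 family that carries PDZ and Ras-binding domains beside its RGS domain. DMSO+VIP libraries 1 to 3 held 133, 130 and 145 CPM of it, and OCA+VIP libraries 1 to 3 held 116, 113 and 94.4 CPM. All OCA+VIP values are below all DMSO+VIP values, by a small margin. The log2 fold change was -0.35 (SE 0.13, 95% interval -0.62 to -0.07), with an unadjusted p of 0.015 and an edgeR adjusted p of 0.094. It passed the threshold in 1 of 15 alternatives, with counts divided by 6 (adjusted p = 0.047). An antisense model, Gm43791, shares 8.53% of its exon bases.

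Rgs10, the short R12 member known for its abundance in leukocytes, was at 15.1, 2.47 and 6.83 CPM in the DMSO+VIP libraries and at 10.7, 6.89 and 10.7 CPM in the OCA+VIP libraries. Rgs19 (GAIP, of the RZ family), which acts on Gi subunits, was at 32.0, 18.5 and 11.4 CPM in the former and at 23.4, 23.1 and 16.8 CPM in the latter. DMSO+VIP library 1 had the highest level of both genes, and for both the OCA+VIP values lie inside the DMSO+VIP range. In that library the macrophage markers summed to 31.7 CPM, between the 15.3 and 48.1 CPM of DMSO+VIP libraries 2 and 3. Cd68 alone gave 26.5, 15.3 and 19.7 CPM of these sums in DMSO+VIP libraries 1 to 3. Whether such cells bear on Rgs10 was not tested. The log2 fold changes were 0.16 (95% interval -0.97 to 1.28) for Rgs10 and 0.02 (-0.66 to 0.70) for Rgs19, with edgeR adjusted p of 0.89 and 0.98. The interval of Rgs10 spans 0.512 to 2.43 times the vehicle level.

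Per kb of exon, Rgs12 was the most abundant of the 8 RGS transcripts, at 24.9 ± 1.39 CPM per kb with DMSO+VIP and 19.8 ± 2.14 with OCA+VIP (SD, n = 3). Over the 6 libraries Rgs19, Rgs10, Rgs16, Rgs5 and Rgs2 followed at means of 13.9, 10.1, 9.45, 4.53 and 3.11 CPM per kb, and Rgs3 and Rgs4 were below 1. The SDs of Rgs19, Rgs10 and Rgs16 overlap, so their order is not fixed. The sum of the 8 was 65.0 ± 13.8 CPM per kb with DMSO+VIP and 63.9 ± 6.05 with OCA+VIP, a difference smaller than either SD. An exact permutation test (two-sided) gave p = 0.9. With 3 libraries per group this test cannot give a p under 0.1, so no conclusion is drawn from it. The sum also holds opposite moves, since Rgs2 and Rgs12 values were lower with OCA+VIP and Rgs16 values higher. Within that sum the share of Rgs2 was 6.80%, 7.52% and 7.09% with DMSO+VIP and 1.95%, 3.58% and 1.99% with OCA+VIP, with no overlap. The share of Rgs16 was 7.90%, 16.8% and 12.3% against 19.1%, 16.0% and 17.5%, with overlap, because DMSO+VIP library 2 exceeds OCA+VIP library 2.

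**Figure D2:**
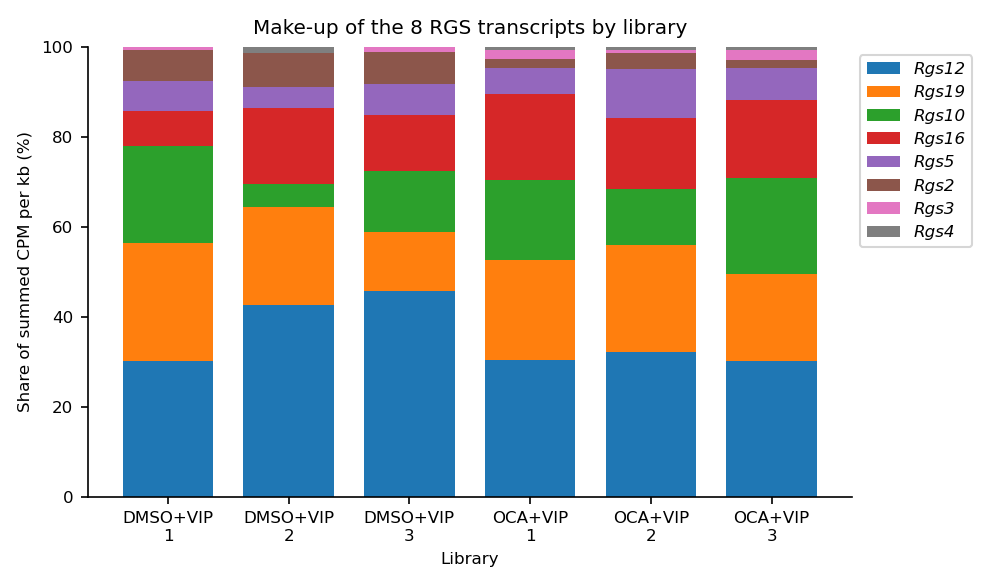
Share (%) of each RGS transcript in the summed CPM per kb of the 8 RGS genes, 1 stacked bar per library. The Rgs2 share is 6.80% to 7.52% in the DMSO+VIP bars and 1.95% to 3.58% in the OCA+VIP bars, while Rgs12 takes the largest share in every bar.

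Gem (chromosome 4, 11704447 to 11714993) was the most abundant of the 10 genes, at 206 ± 10.1 CPM per kb with DMSO+VIP. It was at 436, 477 and 474 CPM in DMSO+VIP libraries 1 to 3 and at 224, 259 and 241 CPM in OCA+VIP libraries 1 to 3. The groups are far apart and each is tight. The means were 463 ± 22.7 and 241 ± 17.8 CPM (SD, n = 3), a 1.94-fold fall (95% interval 1.64 to 2.30). On the log2 scale the difference was -0.96, with an SE of 0.12 and an edgeR adjusted p of 9.9e-06, which ranks Gem 57 by p among the 11286 tested genes. It was called without each of the 6 libraries in turn, with log2 fold changes from -0.93 to -1.01 and adjusted p up to 0.00061.

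Rrad, a close relative of Gem among the RGK GTPases (chromosome 8, 104628066 to 104631321), moved the other way. Its levels were 115, 161 and 124 CPM in the vehicle libraries and 300, 225 and 260 CPM in the OCA+VIP libraries. Every OCA+VIP library was above every DMSO+VIP library. The difference was 0.96 on the log2 scale, with an SE of 0.15 and an edgeR adjusted p of 0.00018, and the call held without each of the 6 libraries in turn (adjusted p up to 0.0073). An antisense model, Gm33023, shares 8.94% of its exon bases. Per kb, Gem exceeded Rrad in all 3 DMSO+VIP libraries, by 2.64, 2.06 and 2.66 times. In the OCA+VIP libraries it was the lower of the pair, at 0.519, 0.804 and 0.646 of the Rrad level. The ratio was formed after these values were seen and follows from the separation of both genes, so it is a description without a test.

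**Figure D3:**
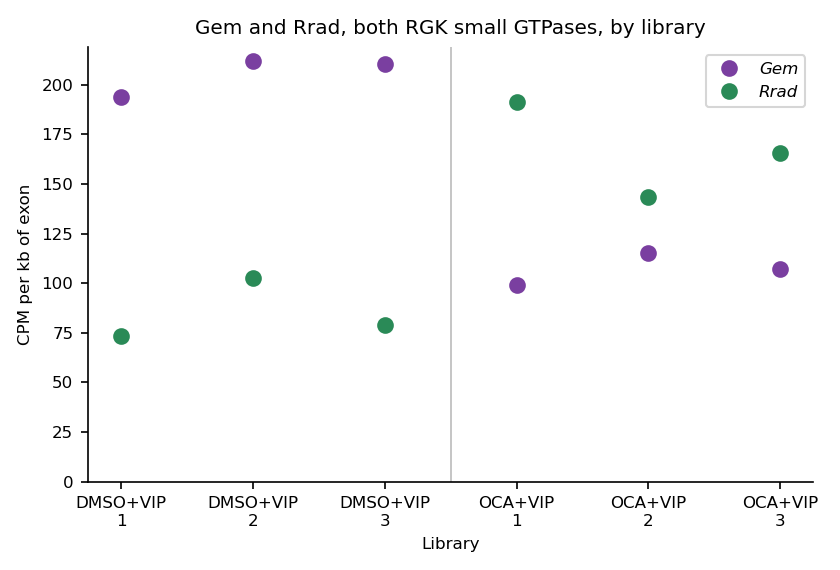
CPM per kb of exon of Gem and Rrad in each of the 6 libraries. Gem lies above Rrad in the 3 DMSO+VIP libraries and below it in the 3 OCA+VIP libraries.

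The other RGK genes were rare. Rem2 was without counts in every DMSO+VIP library and had 14, 21 and 18 counts with OCA+VIP. Its pooled OCA+VIP level was 1.62 times the DMSO+VIP floor of 18 counts, a ratio without an interval. Rem2 was too low for the test. Rem1, at 1.70 ± 1.75 and 2.34 ± 2.07 CPM, overlapped between groups and was not called (edgeR adjusted p = 0.87, log2 fold change 0.39). Of the 9 tested genes in the list of RGK and RASD relatives and Gem partners, Rrad rose, 0 fell and 8 were not called, and the list's median on the log2 scale was -0.07. When OCA+VIP library 2 was left out, 1 gene of this list was lower.

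Rasd1 (chromosome 11, 59963181 to 59964944) had 6, 15.5 and 6 counts with DMSO+VIP and 6, 33 and 12 with OCA+VIP, or 2.79 ± 2.31 and 2.24 ± 1.01 CPM (SD, n = 3). The OCA+VIP values lie inside the DMSO+VIP range, and library 2 is the highest of each group. It did not reach the count filter. In a fit of all genes with any count its edgeR adjusted p was 0.90, so a difference was not detectable at this depth. Its relative Rasd2 (Rhes) was at 1.38 ± 1.85 and 2.80 ± 1.11 CPM and did not pass the test (edgeR adjusted p = 0.64).

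**Figure D4:**
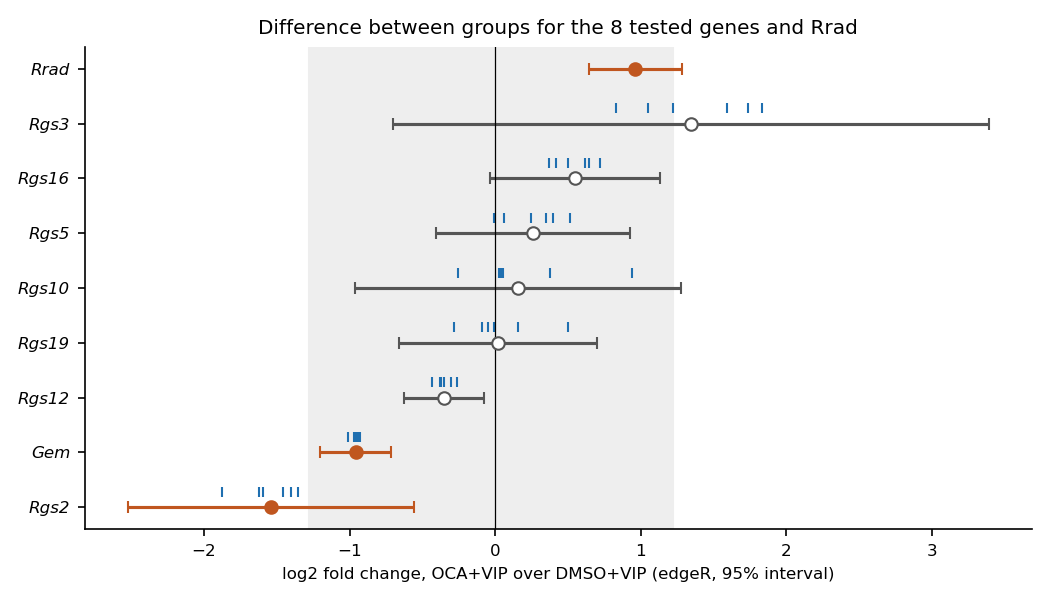
Log2 fold change of OCA+VIP over DMSO+VIP with its 95% interval for the 8 tested genes and for Rrad; filled symbols passed the adjusted threshold of 0.05, blue ticks are fits with 1 library left out (not drawn for Rrad), and the grey band holds the central 95% of all tested genes (-1.28 to 1.22). Gem has a narrow interval below 0 and Rrad a narrow interval above 0, and the intervals of Rgs3, Rgs10 and Rgs2 are the widest.

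Across the 6 libraries, the genes whose centred log2 CPM was nearest to Gem, out of 9033 other tested genes with a mean of at least 10 CPM, were Lgals3bp and Klf4. Their root mean square differences from Gem were 0.04 and 0.08 log2 units. Nearest to Rgs2 were Sulf2 and Abca1, at 0.10 and 0.11. All 4 were lower with OCA+VIP, with log2 fold changes of -1.01, -1.01, -1.40 and -1.36. This likeness over 6 libraries rests mainly on the difference between the groups.

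Most other RGS genes had few counts or none. Of 15 in the table, including the R7-binding protein gene Rgs7bp and the anchor gene Rgs9bp, 7 had a count of 0 in all 6 libraries. Among these 7 were Rgs1, Rgs13, Rgs18 and Rgs21, the neighbours of Rgs2 in a cluster on chromosome 1. Rgs8, which lies 42.7 kb from Rgs16 with 1 gene of the table between them, was another. Only Rgs9 and Rgs20 were tested, and those not tested had at most 24 counts over the 6 libraries. Rgs9 was at 8.24 ± 5.85 and 5.48 ± 2.82 CPM and Rgs20 at 2.62 ± 2.01 and 5.16 ± 2.13 CPM (SD, n = 3), or 0.902 and 2.20 CPM per kb over the 6 libraries, above Rgs3 and Rgs4. Their log2 fold changes were -0.62 and 0.99, and neither passed (0 of 2 called by edgeR, DESeq2 or limma-voom, and 0 at an unadjusted p under 0.05). Rgs2 and Rgs16 were thus each measured near genes of the same family without any count.

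Among the other genes that end or shape receptor signals, the receptor kinase genes Grk5 and Grk6, whose products mark active receptors for arrestin binding, fell. Grk5 had means of 65.0 ± 12.8 and 35.0 ± 3.04 CPM (SD, n = 3) and differed by -0.91 on the log2 scale (SE 0.19, adjusted p = 0.0024 by edgeR). Grk6 had means of 79.8 ± 22.7 and 44.8 ± 4.21 CPM and differed by -0.86 (SE 0.19, adjusted p = 0.0036 by edgeR), and its call was lost in 1 of the 6 fits with a library left out (adjusted p = 0.057). Arhgef12, whose product carries an RGS-homology domain for G12 and G13 subunits, rose from 184 ± 6.92 to 248 ± 17.7 CPM (edgeR adjusted p = 0.024), but was called in only 2 of the 6 such fits (adjusted p up to 0.11). Of the 14 tested genes of this list, 2 fell, 1 rose and 11, among them both beta-arrestin genes, did not pass, and the median log2 fold change was -0.08. Without DMSO+VIP library 1, 1 gene of the list was lower and 0 higher.

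The G protein subunits on which RGS proteins act did not pass the test. Of 10 tested alpha subunit genes, 0 were called by edgeR, DESeq2 or limma-voom, and 1 had an unadjusted p under 0.05; the median log2 fold change was -0.12, and 1 was called lower without OCA+VIP library 2. The Gs gene Gnas and the Gq gene Gnaq differed by -0.10 and -0.29 on the log2 scale, and the Gi genes Gnai2 and Gnai3 by -0.06 and 0.08; these 4 were chosen after their values were seen. Of 10 tested beta and gamma genes, Gng12 fell from 365 ± 35.7 to 246 ± 4.27 CPM (SE 0.12 around a log2 fold change of -0.59, edgeR adjusted p = 0.0025) and 9 did not pass. In the list of nucleotide exchange and dissociation regulators of alpha subunits, 0 of 8 were called by edgeR, DESeq2 or limma-voom, with 1 at an unadjusted p under 0.05 and a median of -0.21. In the list of Gq effectors, 0 of 7 were called by these tools, with 1 at an unadjusted p under 0.05, a median of -0.46, and 1 called lower without OCA+VIP library 2. Of 21 tested receptor genes that couple to these proteins, 6 fell and 1 rose, with a median of -0.37. That is 33.3% called, against 11.8% of all tested genes, in a list chosen with earlier results of these data known. When single libraries were left out, 5 or 6 were lower and 0 or 1 higher. The gene that rose was Vipr1 (log2 fold change 0.68, edgeR adjusted p = 0.027). The receptors of smallest p were Adra2b, Ednrb, Ptger2 and P2ry14, all lower.

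**Figure D5:**
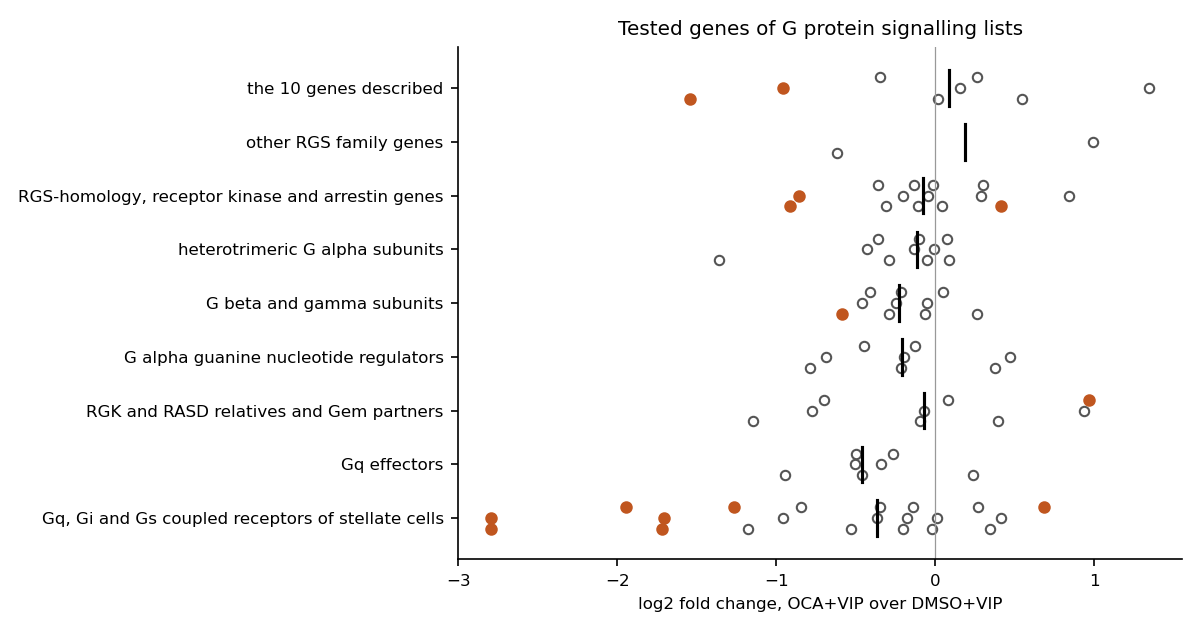
Log2 fold change of OCA+VIP over DMSO+VIP for the tested genes of each list, 1 point a gene; filled points passed the adjusted threshold of 0.05 and black bars are list medians. The medians of the receptor and Gq effector lists, -0.37 and -0.46, lie farthest to the left, and no alpha subunit gene is filled.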

How the data were processed

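The authors deposited 1 table of expected counts, in steps of 0.5 and not adjusted for library size, over the exons of 1 RefSeq transcript per gene. The submitters' processing notes name mm10, STAR, HOMER and DESeq2, without roles or versions. Strand use and duplicate removal are not given in the sources used here. Columns were assigned to groups by name; their numbers could not be matched to the letters of the sample titles. Rounded counts entered edgeR 4.0.16 (R 4.3.3): TMM, filterByExpr (minimum count 10, minimum total 15), quasi-likelihood F test, Benjamini-Hochberg adjustment over all tested genes, threshold 0.05, all two-sided. limma 3.58.1 and DESeq2 1.42.0 served as alternatives, and the steps were tested on simulated data. CPM used column totals, and CPM per kb the deposited exon lengths. Promoters are from RefSeq and exon overlaps from GENCODE. The floor of 18 counts per group is 3 steps of 6 counts, and scatter between libraries does not enter it.

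The genes and lists were chosen with earlier results of these data known. Named genes include all 10 genes and, per list, up to 4 called genes of smallest p with at least 1 CPM. The 2 nearest genes to each called one of the 10 are also named. Any other gene was picked with its values known, whether or not this is stated beside it. Alternatives were scaling by RLE, by upper quartile and by library size, a missing filter, 1 CPM in 3 samples, both other tools, a replicate block, thresholds of 0.01 and 0.1, counts divided by 6, and leaving out each library.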

Additional observations from a re-analysis of the deposited data

How the results depend on the processing

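Gem was lower and called in all 15 alternatives (log2 fold change -0.93 to -1.01). Rgs2 was lower in the 14 alternatives that could test it and called in 8 of them; with counts divided by 6 it, Rgs3 and Rgs10 did not reach the filter. The 2 lower genes under that setting were Gem and Rgs12. Of the 10 genes, 1 was lower at an adjusted p under 0.01, 3 (Gem, Rgs2 and Rgs12) at one under 0.1, 1 with the replicate block by column number, and 1 to 2 when single libraries were left out; 0 were higher throughout. Same-numbered libraries of the groups did not deviate together (correlations -0.04, -0.05 and 0.03), so the numbers are not taken as pairs. Under the block Rgs2 had an adjusted p of 0.062. The count of called genes over the whole table was 1328. It was 648 at an adjusted p under 0.01, 1932 at one under 0.1, 1620 with no filter, and 737 to 1478 with single libraries left out. Directions that turned belonged to uncalled genes. With single libraries left out, Rgs10 ranged from -0.25 (without DMSO+VIP library 2) to 0.94, Rgs5 from -0.0077 (without OCA+VIP library 2) to 0.52, and Rgs19 from -0.28 to 0.50, below 0 without DMSO+VIP library 2 or 3 or OCA+VIP library 1 or 2. Rgs19 was also at -0.054 with counts divided by 6 and at -0.020 with upper-quartile scaling. The causes were not tested. Depth limits Rgs3, Rgs4 and Rasd1, which had at most 69 counts per group. Rgs2, with 157.5 and 107.5 counts with DMSO+VIP and OCA+VIP, and Rgs10, with 101.5 and 179, also rest on few steps of 6 counts.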
